A study of Mus musculus with 24 samples.

Results

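The 10 genes described here encode parts of voltage-gated calcium channels: the alpha2delta subunits Cacna2d1, Cacna2d2 and Cacna2d3, and the pore-forming subunits Cacna1a, Cacna1b, Cacna1c, Cacna1d, Cacna1e, Cacna1g and Cacna1h. They were chosen by symbol, as the best known neuronal members of the family, out of 32884 genes in the deposited expression table, and their m6A peaks were found by gene identifier. All 10 had a mean of at least 0.5 FPKM (fragments per kilobase of transcript, scaled to library size) over the 12 input libraries, the filter that 15564 genes passed. Mouse spinal cord had been collected after spared nerve injury, in which the common peroneal and tibial branches of the sciatic nerve were tied and cut, or after sham surgery, in which the nerve was only exposed. Injured mice were sampled on day 3, day 7 and day 14, and the sham group is labelled day 3 only, so the later injured days have no sham group of their own day. Each of the 4 groups had 3 input libraries (RNA level) and 3 libraries enriched with an antibody against N6-methyladenosine (m6A), 24 in all. Strain, sex, age, cord side and cord segment are not stated in the labels. Nor do the labels tie the 3 libraries within a group to separate animals, so p-values reflect library spread alone, and that spread may be technical.

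A voltage-gated calcium channel opens when the membrane depolarises and is built around 1 pore-forming alpha1 subunit, which sets the current type. Cacna1a and Cacna1b form the P/Q-type and N-type channels that trigger transmitter release, Cacna1e the R-type, Cacna1c and Cacna1d the L-type that couple activity to transcription, and Cacna1g and Cacna1h the low-threshold T-type. The extracellular alpha2delta proteins carry these channels to the surface and to presynaptic terminals. Cacna2d1 is the binding site of gabapentin and pregabalin, drugs for neuropathic pain, and its rise in sensory neurons after nerve injury is well known. m6A is a methyl mark laid on adenosines of messenger RNA, typically near stop codons and in 3′ untranslated regions.

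The m6A peaks covered the start regions of several of these genes, and their bases were read from RefSeq windows (GRCm38.p6) that reach from 250 bases before to 50 bases after an annotated start. Of the 10 genes, 7 had such a window (10 windows in all). Shown are the first 30 bases from 3 starts that lay inside a peak, and 2 stretches of the Cacna2d2 window that lay inside a peak and hold a methylation word. They are a selection that favours the alpha2delta genes and the start found in all 4 lists: 2 starts of Cacna1c and 1 of Cacna1d also lay inside a sham peak, and 2 Cacna1c windows held 6 and 1 words inside peaks. A methylation word is 5 letters long: A, G or T, then A or G, then AC, then A, C or T (18 words), here in capitals and on the sense strand.
Cacna1b start, chr2:24763123-24763152, minus strand: gggcgaggtccaggcagctcgctgcggcta
Cacna2d2 start, chr9:107399880-107399909, plus strand: ccagcgcggcggggagatcgctgcgcgcag
Cacna2d3 start, chr14:29721835-29721864, minus strand: gcgcggcggagcaggcagcccagcgcgctc
Cacna2d2 site 1, chr9:107399630-107399659, plus strand: caGGACTcgcgagcttggattcggatcggt
Cacna2d2 site 2, chr9:107399717-107399746, plus strand: caggcgggcgcgTGACCgcggcgggggcgc
The Cacna1b start lay inside a peak in all 4 lists, the Cacna2d2 start in 3 (sham, day 3 and day 14) and the Cacna2d3 start in 1 (day 3). None of these 3 stretches holds a methylation word, and both Cacna2d2 sites lay inside the day 3 peak alone. The words of both sites lie before the RefSeq start, at offsets of -248 and -151 bases, though the deposited gene begins at chr9:107399612. Whether they are part of the transcript was not tested. Of the 10 windows of the family, 2 held a word in the 50 bases after the start, against 54.4% of all 32851 windows. Over the whole 300-base window 98.4% of all windows hold one, so the presence of a word there is common. A match is a run of letters, not a measured site.

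Before the comparisons, 2 input libraries have to be set apart. Over the 15564 genes, log2(FPKM + 0.5) of day 7 library 3 and sham library 3 correlated at 0.983 with each other and at only 0.925 to 0.943 with the other 10, which correlated at 0.979 or more among themselves. Neuronal markers moved both ways in them. Their summed FPKM over 8 markers was 639 in sham library 3 and 602 in day 7 library 3, against 817 to 861 in the other 10, mostly through Tubb3 (141 and 154 against 305 to 336). Snap25 (345 and 305 against 355 to 375) and Slc32a1 (17.5 and 17.0 against 46.8 to 50.3) were lower too, whereas Elavl4 (23.1 and 24.6 against 11.2 to 12.1), Syt1 (32.5 and 29.4 against 21.3 to 23.7) and Slc17a6 (37.4 and 36.9 against 29.1 to 31.5) were higher. RNA differences below are given with and without these libraries, and leaving them out was decided after their values were seen. The m6A lists cannot be given without them. Sequencing depth per library is unknown from FPKM, so no counting error can be attached to a level. Markers of cord tissue were present: all 8 neuronal, 5 astrocyte and 5 oligodendrocyte markers were above 0.5 FPKM in all 12 libraries. Among sensory ganglion markers, Scn10a, Scn11a, Trpv1 and Prdm12 stayed below 0.5 FPKM in all 12, P2rx3 was at 0.329 to 0.672 and Pou4f1 at 1.36 to 1.79 FPKM, and Calca, which motor neurons also express, at 10.4 to 26.6 FPKM. In bulk tissue, fewer cells of a type and less RNA per cell cannot be told apart.

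**Figure D1:**
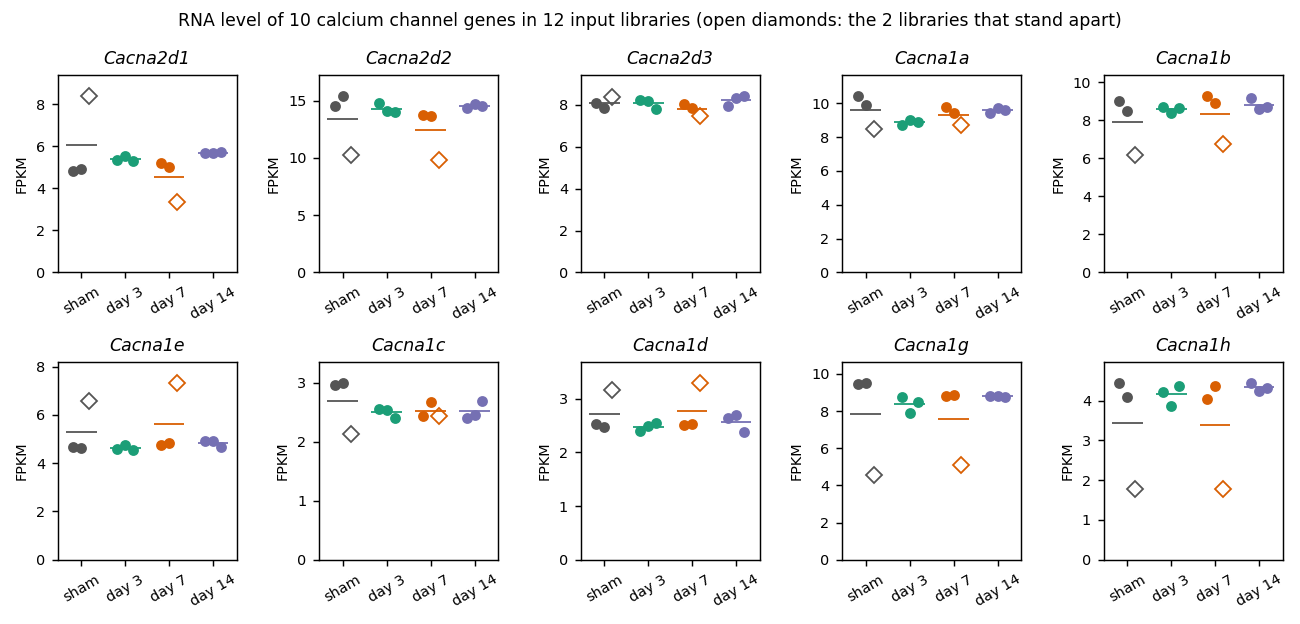
FPKM (vertical axes, from 0) of the 10 genes in the 3 input libraries of each group, with horizontal lines at group means. Open diamonds are sham library 3 and day 7 library 3, which lie far from their groups for Cacna1g, Cacna1h, Cacna1e and Cacna2d1, while Cacna2d3 stays between 7.47 and 8.44 FPKM in all 12 libraries.

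Per transcript length, Cacna2d2 was the most abundant of the 10 in every library. Over the other 10 libraries its mean was 14.4 FPKM, followed by Cacna1a at 9.49, Cacna1g at 8.81, Cacna1b at 8.80, Cacna2d3 at 8.08, Cacna2d1 at 5.33, Cacna1e at 4.73, Cacna1h at 4.24, Cacna1c at 2.61 and Cacna1d at 2.52 FPKM. In those libraries the ranges of neighbours from Cacna1a down to Cacna2d3 overlapped, as did those of Cacna2d1 with Cacna1e and of Cacna1c with Cacna1d. The ranges did not overlap between Cacna2d2 and Cacna1a, Cacna2d3 and Cacna2d1, Cacna1e and Cacna1h, or Cacna1h and Cacna1c. In sham library 3 the order was different: Cacna2d1 ranked 3 and Cacna1g ranked 7, against ranks of 6 and 3 in the other sham libraries.

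With all 12 libraries, none of the 10 genes differed from sham beyond the spread between libraries. In limma's moderated test (Benjamini-Hochberg adjustment over all 15564 genes, pass below 0.05) 0 of 10 passed on day 3, day 7 or day 14 against sham, where 0.0578%, 0.103% and 0.0514% of all genes passed. At an unadjusted p below 0.05 there were 0 of 10 on each day, beside 6.24%, 2.53% and 4.92% of all genes. Between injured days 0 of 10 passed as well, where 0.0129% of genes passed for day 7 against day 3, 0.0129% for day 14 against day 3 and 0.0321% for day 14 against day 7. In the same order, 0 of 10 had an unadjusted p below 0.05 in each, beside 4.05%, 1.75% and 4.46% of all genes. With the replicate number as a block, 9 rather than 16 genes passed on day 7 and again 0 of 10. In none of the 3 sham comparisons did the 3 injured libraries of any of the 10 genes lie wholly above or below the 3 sham libraries, a separation that 20.9% of all genes showed on day 3, 4.43% on day 7 and 18.3% on day 14. The median difference of the 10 was -0.04 on the log2 scale on day 3, -0.03 on day 7 and 0.01 on day 14, beside 0.03, 0.01 and 0.03 for all genes.

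Without the 2 libraries, 3 differences from sham passed. On day 3, Cacna1a and Cacna1g were lower (2 of 10), where 7.07% of all genes passed and 3.06% passed as lower. On day 14, Cacna2d1 was higher (1 of 10), where 4.71% of all genes passed and 2.42% passed as higher. On day 7, 0 of 10 passed in limma, where 1.11% of all genes passed, and 2 of 10 had an unadjusted p below 0.05, as did 12.9% of all genes. Between injured days 0 of 10 passed without the 2 libraries, where 2.04% of genes passed for day 7 against day 3, 1.99% for day 14 against day 3 and 2.69% for day 14 against day 7. In the same order 1, 2 and 2 of the 10 had an unadjusted p below 0.05, beside 15.2%, 15.3% and 16.3% of all genes. All 10 genes read higher on day 14 than on day 3, by 0.0072 to 0.11 on the log2 scale with a median of 0.05, beside 0.0024 for all genes. These values are the same with all 12 libraries. In the 4 lists of related genes described below, 2 of 2, 9 of 10, 8 of 12 and 12 of 20 also read higher. The share of all genes that read higher was not computed, so the count of 10 has no background. The 3 comparisons with sham share their sham libraries, and without the 2 libraries sham has only 2.

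These 3 calls need both libraries left out and the other groups in the same fit. Leaving out sham library 3 alone left 0 of 10 passing on each day, and a fit of only the 2 groups compared, without the 2 libraries, gave 0 of 10 on each day, with adjusted p = 0.0669 for Cacna1a, 0.145 for Cacna1g and 0.0823 for Cacna2d1 in limma. With FPKM rescaled to TPM or quantile normalised, and both libraries left out, all 3 passed in the same direction. Marker sums moved with the same groups: without the 2 libraries the neuronal sum was 817 to 818 in sham, 851 to 861 on day 3, 844 to 848 on day 7 and 854 to 860 on day 14. The summed FPKM of 6 microglial markers, all detected, was 32.9 to 35.9 in those sham libraries, 46.6 to 48.1 on day 3, 45.1 to 46.1 on day 7 and 40.3 to 41.5 on day 14. Other sums were lower on day 3 than in sham libraries 1 and 2: motor neuron markers at 33.9 to 35.5 against 41.7 to 42.0, oligodendrocyte markers at 3692 to 3706 against 4211 to 4230, and oligodendrocyte precursor markers at 17.3 to 17.7 against 29.4 to 30.1 FPKM. On day 14 these 3 sums were 35.5 to 36.5, 3482 to 3502 and 18.1 to 18.4 FPKM. The precursor sum fell mostly through Gpr17, at 11.7 to 11.9 FPKM on day 3 against up to 23.9 in sham. Cspg4 was at 1.73 to 1.82 against up to 2.27 FPKM. Pdgfra hardly moved, at 3.89 to 3.98 on day 3 against a sham minimum of 3.985 FPKM. The part of the marker sums in the 3 differences was not tested.

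**Figure D2:**
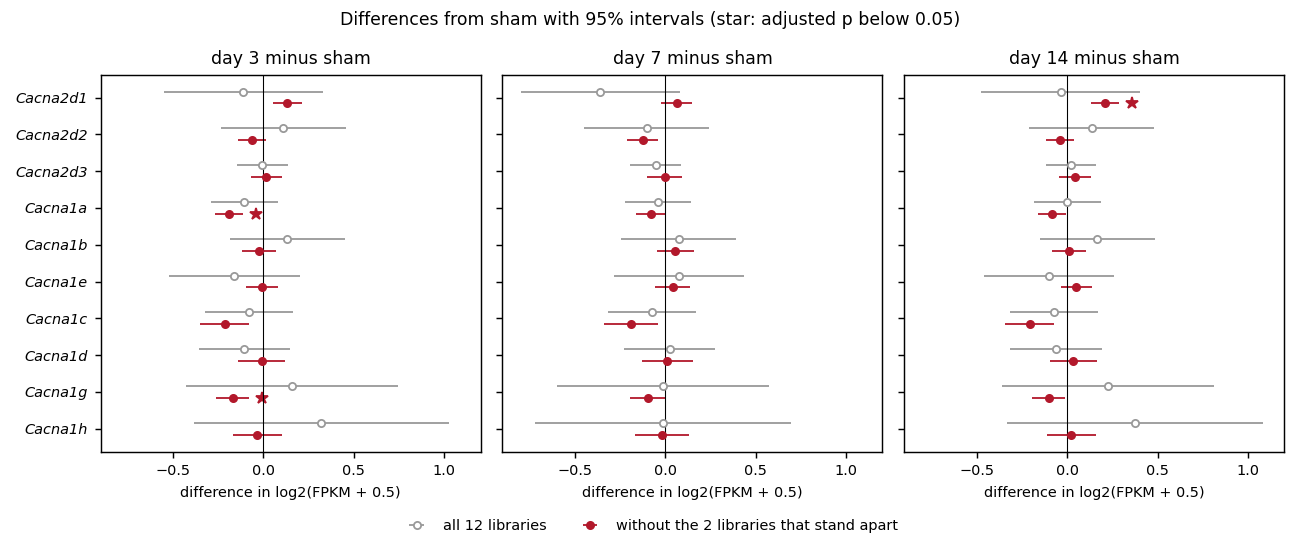
Difference of each injured day from sham in log2(FPKM + 0.5) for the 10 genes (rows), with 95% intervals of the limma fit; open grey points use all 12 libraries and filled red points leave out sham library 3 and day 7 library 3. Stars mark an adjusted p below 0.05: Cacna1a and Cacna1g on day 3 and Cacna2d1 on day 14, all from the fit without the 2 libraries, whose intervals are much narrower.

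Cacna2d1 (chr5:15934691-16374511, plus strand), the gabapentinoid target, read 4.82, 4.93 and 8.42 FPKM in sham libraries 1 to 3. It read 5.36, 5.53 and 5.29 FPKM on day 3, 5.20, 5.03 and 3.36 on day 7, and 5.68, 5.69 and 5.75 on day 14. The highest and the lowest of the 12 values are the 2 libraries that stand apart, and all 6 libraries of days 3 and 14 lie between the sham values. With all 12 libraries the log2 difference from sham was -0.11 ± 0.20 (SE) on day 3, -0.36 ± 0.20 on day 7 and -0.04 ± 0.20 on day 14, with adjusted p-values of 0.799, 1 and 0.938 in limma. Sham library 3 decides the sign on days 3 and 14, since without it alone the differences were 0.13 and 0.21. Without both libraries the difference was 0.13 (95% interval 0.05 to 0.21) on day 3, adjusted p = 0.0573, then 0.06 on day 7, adjusted p = 0.536, and 0.21 (0.13 to 0.29) on day 14, adjusted p = 0.0140. On that basis every injured library lay above both sham libraries. With only 2 sham libraries such a separation is easily reached, here and for the genes below. Its share over all genes is not reported here, so it adds nothing to the call.

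Between the 2 libraries that stand apart, Cacna2d1 was the exception among the 10. In log2(FPKM + 0.5), day 7 library 3 minus sham library 3 was -1.21 for Cacna2d1, while the other 9 genes differed by -0.15 to 0.16. A difference of -1 or lower occurred in 98 of 15564 genes (0.630%), with no test since it compares 2 libraries. Relative to libraries 1 and 2 of their own groups, 8 of the 10 genes deviated the same way in both libraries, as did 85.1% of all genes. Cacna1h was -1.06 in sham library 3 and -1.05 in day 7 library 3, and Cacna1g was -0.99 and -0.74. Cacna1e was 0.46 and 0.56, and Cacna2d1 0.73 and -0.54.

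**Figure D3:**
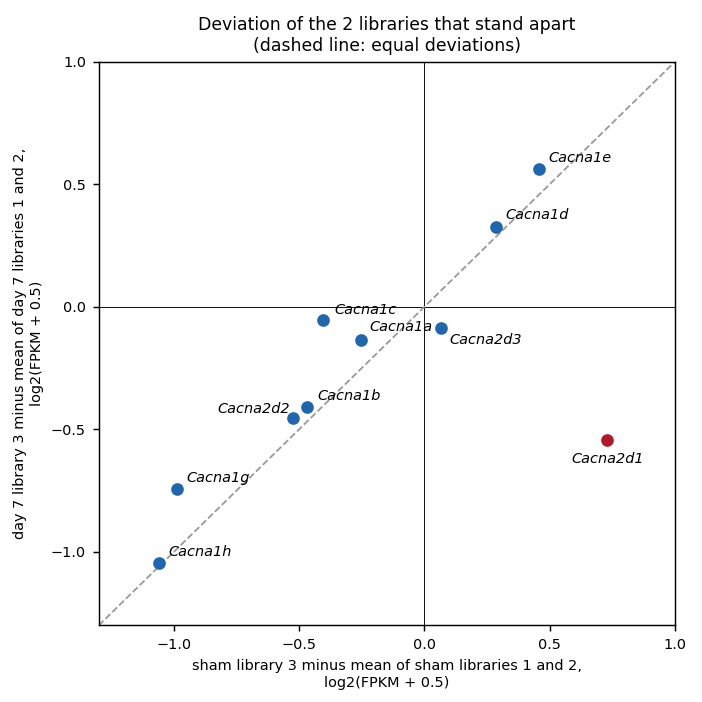
Deviation of sham library 3 (horizontal) and day 7 library 3 (vertical) from libraries 1 and 2 of the same group, in log2(FPKM + 0.5), for the 10 genes; the dashed line marks equal deviations. Most genes lie near the line, and Cacna2d1 lies at 0.73 and -0.54, away from it.

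As a share of the summed FPKM of the 3 alpha2delta genes, Cacna2d1 made up 17.6% and 17.5% in sham libraries 1 and 2 and 31.1% in sham library 3. On day 3 its share was 18.9 to 19.9%, on day 7 it was 19.3, 19.0 and 16.2%, and on day 14 it was 19.8 to 20.3%. All 8 injured libraries other than day 7 library 3 were thus above sham libraries 1 and 2 and below sham library 3. Cacna2d2 held 50.6 to 54.6% in the other 10 libraries, against 37.9% in sham library 3 and 47.6% in day 7 library 3.

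**Figure D4:**
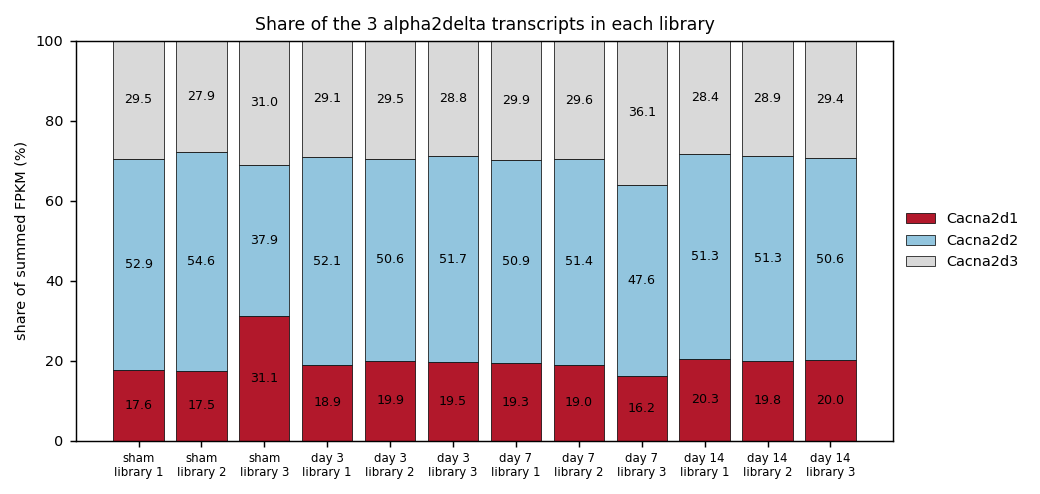
Share (%) of Cacna2d1, Cacna2d2 and Cacna2d3 in their summed FPKM, 1 bar per input library. The Cacna2d1 share is 17.5 to 20.3% in 10 libraries, 31.1% in sham library 3 and 16.2% in day 7 library 3.

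The genes whose levels ran most like Cacna2d1 over the 12 libraries, by Pearson's r of log2(FPKM + 0.5), were Spon1 (r = 0.959), Agt (0.955), Aplp2 (0.949), Xpo4 (0.929) and mt-Nd1 (0.929). Over the other 10 libraries these values were 0.769, 0.853, 0.833, -0.15 and 0.374, so for Xpo4 the likeness rests on the 2 libraries. Spon1 encodes an extracellular matrix protein, Agt angiotensinogen, Aplp2 a relative of the amyloid precursor, Xpo4 a nuclear transport receptor and mt-Nd1 a mitochondrial complex I subunit. These r values are a description and not tests.

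Cacna2d2 (chr9:107399612-107529343, plus strand), the alpha2delta subunit abundant in cerebellar Purkinje cells, read 14.5, 15.4 and 10.3 FPKM in sham. It read 14.8, 14.1 and 14.0 on day 3, 13.7, 13.6 and 9.84 on day 7, and 14.3, 14.7 and 14.5 on day 14. Both libraries that stand apart were the low ones, and the other 10 values span 13.6 to 15.4 FPKM. The log2 difference from sham was 0.11 ± 0.16 on day 3, -0.10 ± 0.16 on day 7 and 0.13 ± 0.16 on day 14, none passing in limma (adjusted p = 0.749, 1 and 0.709). Without the 2 libraries it was -0.06, -0.13 and -0.04, none passing (adjusted p = 0.327, 0.201 and 0.580).

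Cacna2d3 (chr14:28904943-29721864, minus strand) was the steadiest of the 10, with group means of 8.11 ± 0.254 FPKM in sham (SD, n = 3), 8.08 ± 0.248 on day 3, 7.80 ± 0.299 on day 7 and 8.23 ± 0.254 on day 14. Its single values were 8.10, 7.86 and 8.37 in sham, 8.25, 8.19 and 7.80 on day 3, 8.06, 7.86 and 7.47 on day 7, and 7.95, 8.31 and 8.44 on day 14. All 4 groups overlap. The 95% interval of its log2 difference from sham was -0.14 to 0.13 on day 3, -0.19 to 0.09 on day 7 and -0.12 to 0.16 on day 14, and none passed (adjusted p = 0.972, 1 and 0.886 in limma).

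Among the pores of presynaptic channels, Cacna1a (P/Q-type, chr8:84338639-84640246, plus strand) read 10.4, 9.92 and 8.45 FPKM in sham and 8.71, 9.01 and 8.87 on day 3. It read 9.79, 9.43 and 8.70 on day 7 and 9.43, 9.70 and 9.59 on day 14. Sham library 3 fell below all 3 day 3 libraries, whereas sham libraries 1 and 2 lay above every injured library. The day 3 difference was -0.10 ± 0.08 with all libraries (adjusted p = 0.695) and -0.19 ± 0.03 without the 2 (adjusted p = 0.0129). On days 7 and 14 it was -0.04 and 0.00 with all libraries and -0.08 and -0.08 without the 2, none passing.

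Cacna1b (chr2:24603887-24763152, minus strand), whose N-type channel is the target of the intrathecal analgesic ziconotide, read 9.01, 8.50 and 6.18 FPKM in sham and 8.72, 8.39 and 8.67 on day 3. On day 7 it read 9.29, 8.94 and 6.73 and on day 14 9.16, 8.59 and 8.68. The 2 low values are the libraries that stand apart, and all 4 groups overlap. With all libraries the difference was 0.13, 0.07 and 0.17 on days 3, 7 and 14, and without the 2 it was -0.02, 0.06 and 0.01, none passing.

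Cacna1e (R-type, chr1:154390731-154884501, minus strand) ran the other way in the 2 libraries. It read 4.67, 4.63 and 6.58 FPKM in sham, 4.60, 4.75 and 4.53 on day 3, 4.77, 4.82 and 7.32 on day 7, and 4.91, 4.91 and 4.67 on day 14. As a share of the summed FPKM of Cacna1a, Cacna1b and Cacna1e it was 19.4 to 21.4% in the other 10 libraries, 31.0% in sham library 3 and 32.2% in day 7 library 3. Its differences from sham were -0.16 ± 0.16, 0.07 ± 0.16 and -0.10 ± 0.16 on days 3, 7 and 14, and without the 2 libraries -0.01, 0.04 and 0.05, none passing.

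The L-type pores were the least abundant of the 10. Cacna1c (chr6:118587240-119196890, minus strand) read 2.96, 3.00 and 2.13 FPKM in sham, 2.55, 2.54 and 2.41 on day 3, 2.44, 2.67 and 2.44 on day 7, and 2.40, 2.45 and 2.70 on day 14. Sham libraries 1 and 2 are its highest values and sham library 3 its lowest. Without the 2 libraries the difference was -0.21 ± 0.06 on day 3 (adjusted p = 0.0720) and -0.21 on day 14 (adjusted p = 0.0958), neither passing, and with all libraries -0.08 and -0.07. Cacna1d (chr14:30039939-30491455, minus strand) read 2.52, 2.48 and 3.16 FPKM in sham, 2.40, 2.49 and 2.55 on day 3, 2.51, 2.53 and 3.29 on day 7, and 2.64, 2.69 and 2.38 on day 14. Its 2 high values are the libraries that stand apart, and its differences from sham lay between -0.11 and 0.02 with all libraries and between -0.01 and 0.03 without the 2, none passing.

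The T-type pores moved most with the 2 libraries. Cacna1g (chr11:94408391-94474198, minus strand) read 9.43, 9.51 and 4.53 FPKM in sham, 8.75, 7.90 and 8.47 on day 3, 8.83, 8.84 and 5.07 on day 7, and 8.79, 8.82 and 8.74 on day 14. Every injured library lay below sham libraries 1 and 2 and above sham library 3. The day 3 difference was 0.16 ± 0.26 with all libraries (adjusted p = 0.783) and -0.17 ± 0.04 without the 2 (adjusted p = 0.0410), and sham library 3 alone turns its sign. Cacna1h (chr17:25374285-25433783, minus strand) read 4.44, 4.10 and 1.79 FPKM in sham, 4.23, 3.87 and 4.38 on day 3, 4.04, 4.37 and 1.78 on day 7, and 4.44, 4.25 and 4.31 on day 14. Apart from the 2 low libraries its values spanned 3.87 to 4.44 FPKM, and all 4 groups overlap. Its difference from sham was 0.32 ± 0.32 on day 3, -0.01 ± 0.32 on day 7 and 0.37 ± 0.32 on day 14, and without the 2 libraries -0.03, -0.02 and 0.02, none passing. Cacna1g and Cacna1h correlated at r = 0.978 over the 12 libraries and 0.419 over the 10.

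Other genes of the channel complex were read from 4 lists. Of 4 other pore-forming subunits 2 were tested, since Cacna1f and Cacna1s were below the filter, and 0 passed against sham on any day, with all libraries or without the 2. The 2 with the smallest p, Cacna1i (a T-type pore) and Nalcn (the sodium leak channel), differed from sham by 0.15 and -0.13 on day 3. Of 13 other auxiliary subunits 10 were tested and 0 passed with all libraries or without the 2. Cacng2 (stargazin, an AMPA receptor partner) differed by -0.12 on day 3 and Cacng4 by 0.18 on day 7. Of 13 partners of alpha2delta 12 were tested, and of 21 channel modulators 20 were tested, again with 0 passing in limma with all libraries. At an unadjusted p below 0.05 the 4 lists held 1 gene on day 3 (Calm2) and 0 on days 7 and 14. In these lists Prnp (prion protein) differed by 0.17, Grin2b (an NMDA receptor subunit) by -0.36, and Calm2 (calmodulin) by 0.27 on day 3, and Stx1a (syntaxin) by 0.38 on day 14, none passing.

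Without the 2 libraries, 2 of 12 partners passed on day 3, where 7.07% of all genes passed. Lrp1, an endocytic receptor known to bind alpha2delta, was lower by a log2 difference of -0.19 ± 0.02 (adjusted p = 0.000855), and Prnp was higher by 0.10 ± 0.02 (adjusted p = 0.0111). Lrp1 was lower on day 7 too, at -0.13 (adjusted p = 0.0247), and not past the threshold on day 14, at -0.04 (adjusted p = 0.295). With all 12 libraries Lrp1 had the opposite sign on day 3 (0.17, adjusted p = 0.793) and day 14 (0.31, adjusted p = 0.700), and was at -0.07 on day 7 (adjusted p = 1). Among the modulators, those that passed as higher included Calm2, Calm3 and Snap25 on day 3 and Calm2 and Snap25 on day 14. Dpysl2 passed as lower on day 14, at -0.11 (adjusted p = 0.0187), but was at 0.08 with all 12 libraries (adjusted p = 0.801). The share of all genes that passed was 7.07% on day 3 and 4.71% on day 14. On day 7, where 1.11% of all genes passed, 0 of 20 passed in limma, with 2 at an unadjusted p below 0.05. Calm2 was 0.15 higher on day 3 (adjusted p = 0.000303) and 0.07 higher on day 14 (adjusted p = 0.0174). The medians of the 4 lists lay between -0.06 and 0.03, beside 0.0049 to 0.022 for all genes. Lrp1, Calm3, Snap25 and Dpysl2 are named after their values were seen.

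The m6A data are 1 peak list per group, with the authors' fold enrichment of immunoprecipitate over input and no value per library, so lists can be described but not tested against each other. All 10 genes carried at least 1 peak in each list, as did 74.4% of tested genes in the sham list, 85.5% on day 3, 76.6% on day 7 and 85.1% on day 14. Together they had 124 peaks: 30 in sham, 35 on day 3, 27 on day 7 and 32 on day 14. The lists differ in size (32669, 40195, 34136 and 38655 peaks) and in median fold enrichment (6.03, 4.54, 5.37 and 4.52), so a fold is read here within its list. The sham and day 7 groups each include an input library that stands apart, and their lists cannot be given without it. What part these input libraries have in the folds was not tested. Joined where they overlap, the 124 peaks form 42 sites, of which 18 were in all 4 lists, 6 in 3, 6 in 2 and 12 in 1. Of the 124 peaks 67 lay in the last 10% of their gene's length, 27 in the first 10% and 30 between, with no such share computed for all peaks. By the submitters' annotation, 16 of 30 peaks in sham lay in 3′ untranslated regions. On days 3, 7 and 14 it was 19 of 35, 15 of 27 and 18 of 32. For all peaks it was 48.4% in sham and 50.7, 49.3 and 51.5% on those days, so the channel genes were near the general share.

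**Figure D5:**
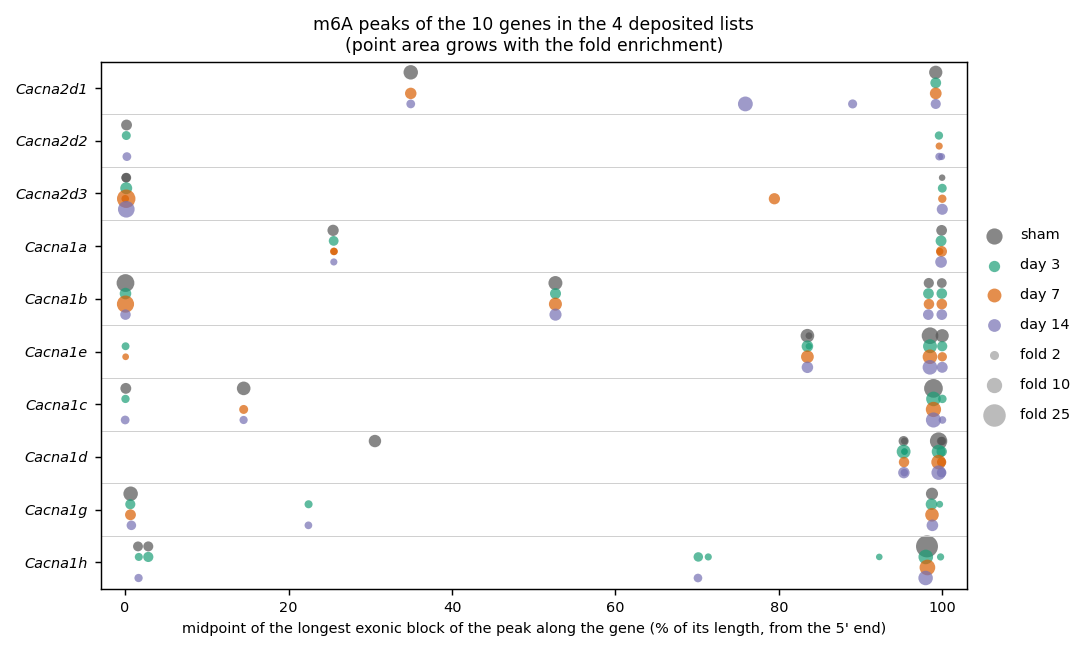
Position of the 124 m6A peaks along the 10 genes, as the midpoint of a peak's longest exonic block in % of the gene's length from its 5′ end, with 1 row of points per list and point area growing with the authors' fold enrichment. All 10 genes have peaks near the 3′ end in every list except Cacna2d2, which has none there in sham. Cacna1b and Cacna1e also carry an internal site in every list. The internal points of Cacna1a are mostly annotated as 5′ untranslated, and its sham peak is a separate site from that of the injured lists.

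Peaks were called shared when they overlapped by at least 50% of both, on the same strand. Of the 30 sham peaks, 18 were found on day 3, 16 on day 7 and 17 on day 14 (60.0, 53.3 and 56.7%), beside 47.7, 52.2 and 48.7% of all sham peaks. In the other direction 18 of 35 day 3 peaks (51.4%), 16 of 27 day 7 peaks (59.3%) and 17 of 32 day 14 peaks (53.1%) were found in sham, beside 38.8, 49.9 and 41.1% of all peaks. How these shares compare depends on the overlap asked for. With an overlap of at least 1 base, the share of sham peaks found was 83.3, 76.7 and 83.3% for the channel genes on days 3, 7 and 14, below the 86.3, 81.0 and 85.7% of all sham peaks.

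Among pore genes, 4 had strong peaks in their 3′ untranslated region. The Cacna1h peak at chr17:25374884-25375932 had a fold of 28.4 in sham, which 2.85% of that list reached, and peaks at the same site had 11.9 on day 3, 13.9 on day 7 and 11.7 on day 14, reached by 10.1, 9.14 and 11.2% of those lists. The log10 p that the authors give for them is -547, -238, -279 and -291. Cacna1c had 20.3, 11.9, 13.1 and 12.8 in the order sham, day 3, day 7 and day 14 at chr6:118593658-118595127. Cacna1d had 17.3, 10.4, 11.9 and 11.7 at chr14:30041706-30043033, and Cacna1e had 15.8, 10.7, 11.9 and 12 at chr1:154397600-154402027. All 4 sites were in every list. These coordinates are those of the deposited tables, whose build is not named; 99.9% of 26171 gene symbols overlapped the RefSeq gene of that name in GRCm38.p6.

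Cacna1b and Cacna1e carried peaks inside the gene body in all 4 lists. In Cacna1b the peak at chr2:24678938-24685807 was placed by the submitters' annotation at exon 18 of 46, with folds of 10.8, 6.26, 9.23 and 7.84 in sham and on days 3, 7 and 14. In Cacna1e the peak at chr1:154471583-154472591 was placed at exon 20 of 47, with folds of 10.2, 7.02, 8.78 and 6.92. The start of Cacna1b, whose first bases are printed above, had folds of 18.2, 7.03, 16.9 and 5.57. Its support was slight, with a log10 p of -4.72, -2.57, -4.19 and -3.08.

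The alpha2delta genes differed from each other. Cacna2d1 had its best supported peak at chr5:16365809-16371272 in the 3′ untranslated region, with folds of 9.63, 5.96, 7.31 and 5.07 and a log10 p of -288, -140, -186 and -126. It also had a smaller internal peak at chr5:16088336-16088486 in the sham, day 7 and day 14 lists (11.6, 6.89 and 3.52), with a log10 p of only -2.80, -3.85 and -1.35. Its highest fold on day 14, 12.3, came from a peak in that list alone with a log10 p of -2.96. Cacna2d2 had a peak at its start in the sham, day 3 and day 14 lists (6.07, 3.75 and 3.52). Its 3′ untranslated site at chr9:107528743-107528893 was in the day 3, day 7 and day 14 lists with low folds of 3.05, 1.94 and 2.45, which 67.8, 92.3 and 77.8% of those lists reached, and it was not in the sham list. Cacna2d3 had a peak near its start at chr14:29720363-29721864 in every list, with top folds of 4.63, 7.62, 19.7 and 15.8. These were reached by 61.3% of the sham list, 26.6% of day 3, 3.91% of day 7 and 5.87% of day 14. Their log10 p was -3.81, -7.39, -9.88 and -11.3. The best supported site of Cacna2d3 was in its 3′ untranslated region, at chr14:28904943-28905303. It was in every list, with folds of 1.41, 3.65, 3.09 and 6.32 and a log10 p of -8.55, -119, -73.9 and -131. Whether the ranks of the start site changed cannot be tested with 1 list per group.

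Of the remaining pore genes, Cacna1a had a 3′ site with top folds of 5.88, 6.10, 6.15 and 7.18, and a 5′ site at chr8:84415545-84415815 in the injured lists (4.69, 2.41 and 1.94) that was not in sham, where a separate peak at chr8:84415366-84415455 had 6.62 at a log10 p of only -1.43. Cacna1g had a 3′ peak (7.86, 7.03, 10.1 and 7.11) and a start peak (11.7, 5.08, 6.04 and 4.42) in all 4 lists. Under a stricter list (fold of at least 2 and p of at most 1e-05) 81 of the 124 peaks were kept, and 9, 10, 9 and 10 of the 10 genes had one in sham and on days 3, 7 and 14. The stricter lists held 21808, 22097, 20957 and 21959 peaks of all genes. The share of all tested genes with such a peak was not computed, so the gene counts have nothing to be compared with. Among the other gene lists, a peak in every peak list was found for 1 of 2 tested pore-forming subunits and 10 of 10 auxiliary subunits. The same held for 11 of 12 partners and 16 of 20 modulators. The share of all tested genes with a peak in every list was not computed, so these counts have no background. Nalcn, Gem and Dpysl2 had no peak in any list. Input levels and peak lists cannot be combined into a methylation level here.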

How the data were processed

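RNA from spinal cord of 4 groups was sequenced before (input) and after enrichment with an m6A antibody, 3 libraries each. The authors deposited FPKM per gene for the 12 input libraries and, per group, a peak list whose fold enrichment is a ratio and whose log10 p and FDR are scores, per the file headers. HISAT2, StringTie, ChIPseeker and edgeR are named in the submitters' processing notes. The peak caller, the genome build and any pooling of replicates are not named in the labels. Depth is unknown, and the number of libraries limits the precision.

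log2(FPKM + 0.5) of genes with a mean of at least 0.5 FPKM was fitted in limma 3.58.1 (R 4.3.3) with 4 group means, a trended prior and Benjamini-Hochberg adjustment over 15564 genes. The fit was also run on simulated data with independent noise in each library. That simulation had no libraries that stand apart together, so it cannot show how the fit behaves with them. Peaks were compared with bedtools 2.31.1 by at least 50% reciprocal overlap on the same strand. A replicate block was also fitted. Deviations of same-numbered libraries from their group means correlated over genes for day 7 and sham (r = 0.459, 0.534 and 0.793). In the other comparisons r was -0.11 to 0.212. The day 7 and sham means each include a library that stands apart, which by itself moves libraries 1 and 2 of both groups together. These r values therefore cannot show whether replicate numbers pair the samples.

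The members and lists were chosen with earlier results of these data known. Named are all 10 genes, from each list the genes passing against sham or else the 2 with the smallest p, the peak with the highest fold per gene and group, and the 5 genes most like Cacna2d1. Alternatives were other scalings, pseudocounts, filters, sample sets and peak thresholds. Results for some genes of the lists are not reported here.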

Additional observations from a re-analysis of the deposited data

How the results depend on the processing

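With both libraries that stand apart left out, 13 of the 30 differences from sham of the 10 genes changed sign, each to the same value in a fit of only the 2 groups compared. On day 3 these were Cacna2d1 (0.13), Cacna2d2 (-0.064), Cacna2d3 (0.017), Cacna1b (-0.024), Cacna1g (-0.17) and Cacna1h (-0.033), on day 7 Cacna2d1 (0.064), and on day 14 Cacna2d1 (0.21), Cacna2d2 (-0.040), Cacna1a (-0.084), Cacna1d (0.033), Cacna1e (0.050) and Cacna1g (-0.10). With those libraries left out, Cacna1g on day 3 was -0.18 in TPM and -0.19 after quantile normalization, and Cacna2d1 on day 14 was 0.24 and 0.19. With all 12, Cacna2d3 and Cacna1a on day 14 became -0.016 and -0.036 in TPM and -0.0069 and -0.025 after quantile normalization. With libraries that resemble each other averaged into 6 samples, Cacna1g on day 7 became 0.026. The cause of these changes was not tested. Pseudocounts of 0.1 and 1, no filter on low values, the replicate block and the fit of only 2 groups with all libraries changed none of the 30 signs, and a filter of 5 FPKM, which kept 7 of the 10 genes, changed none of 21.

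The counts of all genes passing, in the order day 3, day 7 and day 14 against sham, were 1101, 173 and 733 without the 2 libraries, with 2, 0 and 1 of the 10 genes, and 519, 36 and 264 in 2-group fits without them. They were 2, 1 and 5 in 2-group fits with all libraries and 0, 0 and 0 in the 6 averaged samples, where fewer samples enter. With the replicate block 5 genes passed on day 3 and 9 on day 7, and with a filter of 5 FPKM 8 passed on day 7 and 4 on day 14. In the order day 7 against day 3, day 14 against day 3 and day 14 against day 7, the counts were 317, 309 and 418 without the 2 libraries, 107, 155 and 128 in 2-group fits without them, 0, 155 and 0 in 2-group fits with all, and 1, 1 and 0 with the replicate block. Day 7 against day 3 gave 1 with a pseudocount of 0.1, 1 with a filter of 5 FPKM, 1 in TPM and 0 after quantile normalization. Day 14 against day 3 gave 4 with no filter, 0 with a filter of 5 FPKM and 1 in TPM. Day 14 against day 7 gave 3 with a pseudocount of 0.1 and 3 with no filter. These between-day counts were 0 in the 6 averaged samples. The replicate block changed no call on the 10 genes.

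Leaving out each library in turn gave 3 to 40 genes on day 3, 4 to 26 on day 7 and 5 to 21 on day 14 against sham, with 0 to 0 of the 10 genes, and 0 to 8, 0 to 4 and 0 to 15 between days. Of 360 differences of the 10 genes, 33 changed sign. On day 3 the ranges were -0.24 to 0.13 for Cacna2d1, -0.064 to 0.22 for Cacna2d2, -0.026 to 0.019 for Cacna2d3, -0.024 to 0.23 for Cacna1b, -0.17 to 0.33 for Cacna1g and -0.033 to 0.52 for Cacna1h. On day 7 they were -0.28 to 0.049 for Cacna2d2, -0.12 to 0.020 for Cacna1a, -0.081 to 0.21 for Cacna1b, -0.11 to 0.23 for Cacna1e, -0.086 to 0.12 for Cacna1d, -0.34 to 0.23 for Cacna1g and -0.37 to 0.33 for Cacna1h. On day 14 they were -0.16 to 0.21 for Cacna2d1, -0.040 to 0.24 for Cacna2d2, -0.00096 to 0.044 for Cacna2d3, -0.084 to 0.061 for Cacna1a, -0.18 to 0.050 for Cacna1e, -0.12 to 0.033 for Cacna1d and -0.10 to 0.39 for Cacna1g. The stricter list kept 81 of 124 peaks, and at 80% reciprocal overlap 11 peaks were shared between sham and day 14. Read depth is unknown, and no value bears on the part it plays.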

Other observations

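Among the 10 genes, likeness over libraries rested on the 2 libraries that stand apart for some pairs and not for others. Pearson's r of log2(FPKM + 0.5) between Cacna2d2 and Cacna1e was -0.96 over 12 libraries and -0.22 over the other 10. Cacna1a and Cacna1g were at 0.720 and 0.735, and Cacna1e and Cacna1d at 0.966 and 0.669. Summed FPKM of 5 erythroid markers was 189 to 202 in sham libraries 1 and 2, 318 in sham library 3, 424 to 518 on day 3, 571 to 693 on day 7 and 355 to 369 on day 14, a measure of blood RNA in the same input libraries. The part of these values in the differences of the channel genes was not tested.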
